A study of Mus musculus with 12 samples.

Results

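The mRNA of 10 genes was close to 0 in some murine BrafV600E melanoma lines and clear in others, or differed very strongly between lines, and is described here across a control line and 3 knockout lines. The genes were chosen by name from the deposited table for exactly these values: *Nme4*, *Itm2a*, *Fam132b*, *Kcnk5*, *Nefm*, *Syt13*, *Tshz3*, *Magohb*, *3830403N18Rik* and *5730409E04Rik*. These are 10 of the 30705 gene names in the table, and all 10 were among the 11282 genes that averaged at least 1 RPKM (reads per kilobase of transcript, scaled to the mapped reads of the sample) over the 12 samples. Because the levels chose the genes, the levels are given as a description, and no test or p-value is attached to them.

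RNA-seq was carried out on cells of a C57BL/6 melanoma line cultured in vitro, with 3 samples for each of 4 lines. The line came from a mouse with an inducible BrafV600E allele, Cre under the tyrosinase promoter and no functional p16INK4a, so all 4 lines carry these alterations. CRISPR/Cas9 removed *ptgs1* (COX-1), *ptgs2* (COX-2) or *ptges* (mPGES-1), the enzymes that lead from arachidonic acid to prostaglandin E2. The control line, called scramble, received a guide without a target, and the question put to the RNA was which genes differed once each enzyme was lost. Edited cells were selected with puromycin and subcloned by limiting dilution, and the study describes the 3 samples of a line both as different subclones and as independent samples, so what their spread covers is not settled. Loss of the enzyme and any other difference between one line and the next cannot be told apart.

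Transcription of a mammalian gene can be held silent by closed chromatin or by methylation of CG dinucleotides in its promoter, and such a state can pass on through cell division. Promoters are commonly divided into those rich in CG, typical of widely expressed genes, and those poor in CG, more often found at tissue-restricted genes.

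Promoters of 4 of the genes are shown because these genes form 2 pairs that moved together across the lines, *Itm2a* with *Magohb* and *Nme4* with *Tshz3*. Each is 300 bases from RefSeq on the GRCm38.p6 assembly, 250 before and 50 after the annotated start, read 5′ to 3′ on the strand of the gene, with every CG dinucleotide in capitals. The *Itm2a* window lies at chrX:107403311-107403610 on the minus strand and that of *Magohb* at chr6:131293195-131293494 on the minus strand. The *Nme4* window lies at chr17:26095421-26095720 on the minus strand and that of *Tshz3* at chr7:36697868-36698167 on the plus strand.
Itm2a: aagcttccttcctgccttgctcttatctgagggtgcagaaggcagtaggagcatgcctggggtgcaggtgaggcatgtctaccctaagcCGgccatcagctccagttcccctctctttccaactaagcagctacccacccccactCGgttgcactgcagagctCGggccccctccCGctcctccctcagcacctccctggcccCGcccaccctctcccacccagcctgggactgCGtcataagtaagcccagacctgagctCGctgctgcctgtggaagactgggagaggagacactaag
Magohb: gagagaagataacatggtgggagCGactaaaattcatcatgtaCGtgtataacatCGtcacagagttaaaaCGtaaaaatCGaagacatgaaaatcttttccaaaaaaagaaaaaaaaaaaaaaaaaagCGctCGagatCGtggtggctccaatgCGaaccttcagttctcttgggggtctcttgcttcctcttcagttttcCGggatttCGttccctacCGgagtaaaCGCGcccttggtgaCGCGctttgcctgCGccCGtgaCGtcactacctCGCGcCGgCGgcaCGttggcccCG
Nme4: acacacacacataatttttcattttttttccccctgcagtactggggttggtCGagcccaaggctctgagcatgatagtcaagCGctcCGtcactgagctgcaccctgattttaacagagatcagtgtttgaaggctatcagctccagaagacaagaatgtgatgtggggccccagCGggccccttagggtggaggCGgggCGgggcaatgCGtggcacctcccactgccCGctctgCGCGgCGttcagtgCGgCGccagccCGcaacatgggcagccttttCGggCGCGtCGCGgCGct
Tshz3: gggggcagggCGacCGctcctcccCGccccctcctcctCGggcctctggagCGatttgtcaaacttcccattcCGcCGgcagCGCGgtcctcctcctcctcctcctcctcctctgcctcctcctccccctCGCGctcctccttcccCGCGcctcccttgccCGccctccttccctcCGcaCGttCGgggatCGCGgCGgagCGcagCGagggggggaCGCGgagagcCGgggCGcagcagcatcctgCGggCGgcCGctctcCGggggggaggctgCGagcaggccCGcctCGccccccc

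Depth, read from the steps between low values of short genes, was about 13500000 to 17200000 reads per sample, and the correlation of log2 values was 0.984 to 0.995 within a line and 0.962 to 0.985 between lines. The targeted genes were lower in their own lines than in scramble without overlap: *Ptgs1* at 14.3 to 16.91 against 141.65 to 164.17 RPKM (10.6% of the scramble mean), *Ptgs2* at 76.13 to 84.62 against 748.76 to 776.77 (10.5%) and *Ptges* at 34.83 to 41.01 against 75.01 to 79.82 (47.9%). The study also reports lower *ptges* mRNA in *ptgs1*-KO than in scramble cells, and no such fall in *ptgs2*-KO cells. A lower *ptges* level is therefore not particular to the *ptges*-KO line. Markers of the melanocyte lineage gave little against which to check the cells: 4 of 8, among them *Sox10* and *Dct*, were listed at 0 in all samples, and *Mitf* lay between 0.97 and 3.35 RPKM.

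*Nme4* encodes the nucleoside diphosphate kinase of mitochondria, an enzyme that also binds cardiolipin of the inner membrane (chr17:26091734-26095602, minus strand, GRCm38). The gene was listed at 0 in all 3 scramble and all 3 *ptgs2*-KO samples. It stood at 5.78, 5.71 and 5.04 RPKM in *ptgs1*-KO cells and at 7.32, 9.04 and 9.85 RPKM in *ptges*-KO cells. The lines thus fell into 2 sets that did not overlap, and within the upper set the *ptges*-KO mean of 8.74 ± 1.29 was 1.59 times the *ptgs1*-KO mean of 5.51 ± 0.409 (SD, n = 3), again with no overlap. One read was worth about 0.055 RPKM for its annotated transcript of 1176 bases, so a listed 0 allows a level of up to 0.165 RPKM, that of 3 reads, for counting error only. In RNA from a culture, fewer expressing cells and less RNA per cell cannot be told apart.

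*Tshz3*, a teashirt zinc finger transcription factor (chr7:36698118-36773553, plus strand), followed nearly the same pattern. Its values were 0.35, 0.4 and 0.48 RPKM in scramble cells and 0.16, 0.12 and 0.15 in *ptgs2*-KO cells. They were 7.48, 6.39 and 7.27 in *ptgs1*-KO cells and 5.66, 4.76 and 4.45 in *ptges*-KO cells. None of the lines overlapped: the *ptgs1*-KO mean was 17.2 times and the *ptges*-KO mean 12.1 times that of scramble, whereas the *ptgs2*-KO mean was lower than scramble by 2.86 times. Unlike *Nme4*, the gene was detected in all samples, since a read was worth about 0.0127 RPKM over its 5098 bases.

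*Itm2a* encodes a small membrane protein of the BRI family (chrX:107397099-107403376, minus strand), and it was clearly present in a single line. In *ptges*-KO cells it reached 7.75, 9.25 and 8.76 RPKM. The scramble samples gave 0, 0.19 and 0.11, the *ptgs1*-KO samples 0.16, 0.08 and 0.04 and the *ptgs2*-KO samples 0.17, 0.14 and 0.04 RPKM. The latter 3 lines overlapped one another fully and lay within about 5 reads of 0, at about 0.0371 RPKM per read.

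*Magohb* (chr6:131284388-131293244, minus strand) encodes a copy of the mago nashi protein, a core part of the exon junction complex laid on spliced mRNA. It was likewise high in *ptges*-KO cells, at 12.22, 16.56 and 17.31 RPKM. Scramble samples stood at 0.34, 0.27 and 0.53, *ptgs1*-KO samples at 0.18, 0.29 and 0.28, and *ptgs2*-KO samples at 0.1, 0 and 0.35 RPKM. Neighbouring lines in this low range overlapped, and the *ptges*-KO mean of 15.4 ± 2.75 was 40.4 times the scramble mean of 0.38 ± 0.135 (SD, n = 3), which rests on few reads at about 0.0722 RPKM each. A predicted gene on the same strand, *Gm44958*, shares 24% of the 101-base windows of *Magohb* transcripts, so reads there cannot be told apart, whereas no window of this length is shared with its close copy *Magoh*.

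*Fam132b*, now called *Erfe*, encodes erythroferrone, a hormone of red cell precursors that lowers hepcidin in the liver (chr1:91366430-91374217, plus strand). It was absent or nearly so only in the line without *ptgs1*, at 0, 0.02 and 0.04 RPKM, which corresponds to no read, about 1 read and about 2 reads. The scramble samples were at 18.5, 19.16 and 18.77 RPKM, the *ptges*-KO samples at 21.37, 18.75 and 18.81, and the *ptgs2*-KO samples at 25.7, 26.62 and 23.21. The *ptges*-KO and scramble samples overlapped, and the *ptgs2*-KO mean was 1.34 times that of scramble. Erythroid markers did not accompany it: the 6 measured summed to 0.13 to 0.69 RPKM in any sample, and *Hbb-b1* was at 0 throughout. Its last exons overlap *Ilkap* on the other strand, which holds 9.13% of its windows. The sources name both a directional library kit and another kit, and whether counting used strand is not given, so reads of overlapping genes may not be separated. *Ilkap* averaged 53.6 ± 2.44 RPKM in *ptgs1*-KO and 55.7 ± 5.37 in scramble cells.

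*Kcnk5* encodes TASK-2, a tandem-pore potassium channel that opens in alkaline surroundings (chr14:20140057-20181809, minus strand). The gene was lost in *ptges*-KO cells alone, with 0.03, 0.02 and 0 RPKM against about 0.0191 RPKM for a read. The other samples ran from 7.28 RPKM in *ptgs2*-KO to 15.92 in *ptgs1*-KO. Scramble samples gave 10.29, 10.67 and 11.17 RPKM, below the *ptgs1*-KO values of 15.92, 13.18 and 12.29 and above the *ptgs2*-KO values of 9.34, 9.24 and 7.28. The order of the lines had no overlap, but the steps above and below scramble were small, at 1.29 and 1.24 times.

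*5730409E04Rik* (chr4:126609818-126614371, plus strand) was lost in *ptgs2*-KO cells. These samples were at 0, 0.02 and 0 RPKM, or no more than about 1 read each. Scramble cells had 5.7, 5.92 and 6.25 RPKM, *ptgs1*-KO cells 8.88, 9.13 and 7.05, and *ptges*-KO cells 10.68, 9.62 and 11.54. All 4 lines were separate, with the *ptgs1*-KO mean at 1.4 and the *ptges*-KO mean at 1.78 times scramble.

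*Nefm*, the medium chain of the neurofilaments that stiffen axons (chr14:68082590-68124846, minus strand), was low in 2 lines. It measured 6.45, 6.29 and 7.04 RPKM in scramble and 4.31, 3.76 and 4.3 in *ptgs1*-KO samples. Values of 0.23, 0.25 and 0.2 RPKM were found without *ptgs2*, and of 0.16, 0 and 0.18 without *ptges*. The scramble mean was 1.6 times that of *ptgs1*-KO and 29.1 times that of *ptgs2*-KO cells, and the sets of samples did not overlap in any pair of lines. *Nefl*, the light chain gene, lies beside it on the other strand and shares 17.7% of its windows, with the same doubt about strand. Its own values were 0.09, 0.03 and 0.09 in scramble, 1.99, 1.18 and 1.47 in *ptgs1*-KO, 0.17, 0.15 and 0.21 in *ptgs2*-KO and 0 in all *ptges*-KO samples. The light chain gene was thus highest in another line than *Nefm*.

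*Syt13*, a synaptotagmin of the vesicle membrane that lacks the usual calcium-binding residues (chr2:92915098-92956058, plus strand), was higher in all 3 knockout lines than in scramble. Scramble samples were at 0.63, 1.08 and 0.89 RPKM. The *ptgs1*-KO samples reached 21.47, 17.86 and 16.26, the *ptgs2*-KO samples 12.86, 12.02 and 11.32 and the *ptges*-KO samples 7.3, 5.7 and 6.26 RPKM. No lines overlapped, and the means were 21.4, 13.9 and 7.41 times that of scramble. The sum of 6 neuronal markers was 19.6 to 20.3 RPKM in *ptgs1*-KO samples and 6.66 to 8.92 in all others. This rests on *Tubb3*, a tubulin, at 18.7 to 19.5 RPKM in *ptgs1*-KO and 6.77 to 7.61 in scramble samples, whereas *Syp*, a synaptic vesicle protein, was lower there, at 0.72 to 0.92 against 1.18 to 1.44 RPKM. *Rbfox3* was at 0 in every sample and *Snap25* at no more than 0.03 RPKM, and the part of these markers in the levels of *Nefm* and *Syt13* was not tested.

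*3830403N18Rik*, for which RefSeq gives the synonym *Xlrl*, belongs with the X-linked *Xlr* genes, relatives of a protein of the meiotic chromosome axis (chrX:56136572-56153498, plus strand). It was high in *ptgs1*-KO cells, at 24.8, 36.3 and 22.41 RPKM. Scramble samples stood at 1.04, 1.15 and 0.88, *ptgs2*-KO samples at 0.94, 1.29 and 1.56 and *ptges*-KO samples at 0.18, 0.23 and 0.29 RPKM. The *ptgs1*-KO mean was 27.2 times that of scramble, *ptgs2*-KO and scramble overlapped, and the *ptges*-KO samples lay below both, with a scramble mean 4.39 times theirs. Its *ptgs1*-KO samples were the most variable among expressed lines of all 10 genes, with a coefficient of variation of 26.7%. Germ cell markers summed to 0.36 to 1.24 RPKM in any sample, with *Dazl* at 0 throughout. Of its windows, 2.06% also occur in *Xlr*.

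**Figure D1:**
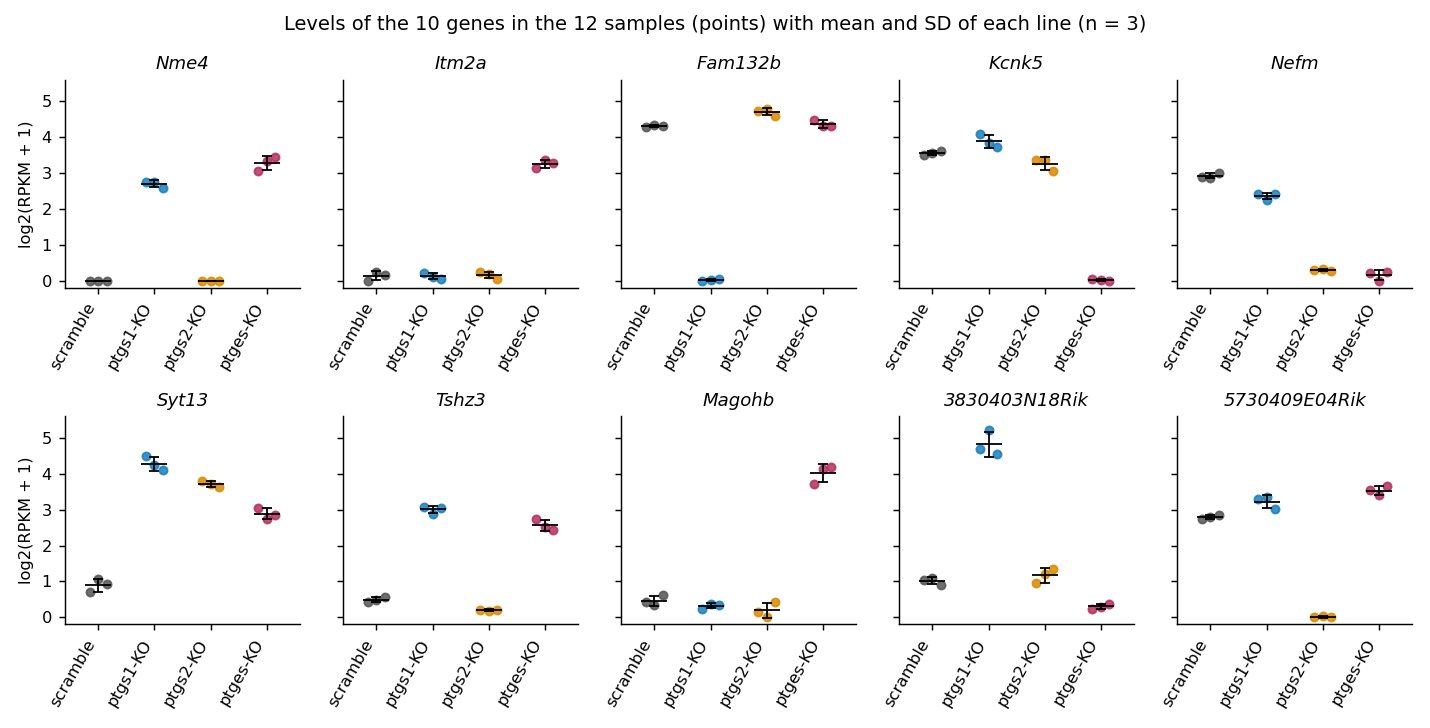
Levels of the 10 genes on the log2(RPKM + 1) scale (vertical axis) in the 4 lines (horizontal axis, colours); points are samples, the horizontal mark is the mean and the bars the SD of 3 samples. Low and high lines lie far apart in every panel, and *Fam132b*, *Kcnk5* and *5730409E04Rik* are near 0 in a single line, a different one for each gene.

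Seen together, the 10 genes gave 40 line means, of which 17 were under 1 RPKM, 2 between 1 and 2 RPKM and 21 at 4 RPKM or more. The gap is what selected them. Within lines at 1 RPKM or more the coefficient of variation ran from 1.76% to 26.7% with a median of 9.06%. Scramble cells belonged to the expressing side for *Fam132b*, *Kcnk5*, *Nefm* and *5730409E04Rik* and to the low side for the other 6.

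The strictness of the switch was set against the whole table with fixed limits, off meaning no more than 0.2 RPKM in all 3 samples of a line and on meaning at least 5 RPKM in all 3 of another. Of the 11282 genes, 17 met both limits (0.151%), and 7 of them were among the 10 described here; since near-zero and clear levels chose these 10, nothing is read from that count. *Itm2a*, with a highest low-line value of 0.19 RPKM, was just inside. *Magohb* and *3830403N18Rik* were outside, since no line had a highest value under 0.29 RPKM (*ptgs1*-KO for *Magohb*, *ptges*-KO for *3830403N18Rik*). *Syt13*, with 0.63 RPKM as its lowest value, was outside too. The other 10 genes were *Adm*, *Aim2*, *AK208673*, *Ano3*, *Baiap2l1*, *Ctsc*, *Fbln1*, *Fstl3*, *Mfsd2a* and *Morn4*. A line could be off for several of the 17: scramble was off for 3, *ptgs1*-KO for 10, *ptgs2*-KO for 7 and *ptges*-KO for 4.

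The genes nearest to each member in profile were ranked by the root mean square difference between log2(RPKM + 1) values, each centred on its gene's mean, over the 12 samples. A small distance means similar changes in the same lines on this scale. Falls to near 0 RPKM are understated on it, so a gene that is nearly lost can lie close to one that keeps part of its RNA. The closest to *Itm2a* was *Morn4* (0.13), with 7.81 ± 0.361 RPKM in *ptges*-KO and at most 0.133 ± 0.123 on average in the other lines, followed by *Magohb* (0.32) and *Fbln1* (0.44). *Magohb* in turn was nearest to *Fbln1* (0.26), which encodes the matrix protein fibulin-1 and averaged 16.9 ± 1.79 RPKM in *ptges*-KO cells and 0 to 0.137 elsewhere. *Nme4* and *Tshz3* were each other's nearest gene (0.49), with *Mettl7b* next for both, and *Txnip* (0.91) and *Ampd3* (0.60) in the last place.

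Targeted genes appeared among the 3 nearest for 2 of the genes lost in 1 line. *Ptgs2* was the nearest to *5730409E04Rik* (0.32), with means of 761 ± 14.2 RPKM in scramble, 598 ± 86.4 in *ptgs1*-KO, 754 ± 47.7 in *ptges*-KO and 79.8 ± 4.38 in *ptgs2*-KO cells. The third for the same gene was *Ptgr2* (0.45), a reductase that inactivates prostaglandins, at 0.0967 ± 0.0635 RPKM in *ptgs2*-KO and 4.25 ± 0.625 in scramble cells. *Ptgs1* was the nearest to *Fam132b* (0.56), with 16 ± 1.49 RPKM in *ptgs1*-KO and 151 ± 11.5 in scramble cells. *Pcdh7* (0.59) and *Cbr1* (0.70), a carbonyl reductase at 0.143 ± 0.199 RPKM in *ptgs1*-KO and 6.15 ± 1.23 in scramble cells, came next. *Prrg1*, listed at 0 in all *ptges*-KO samples and averaging 3.72 ± 0.0557 RPKM in scramble, was nearest to *Kcnk5* (0.52), and *Ptges* was not among its 3 nearest genes.

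For *Nefm* the nearest genes were *Nptx1* (0.27), *Clu* (0.38) and *Dll1* (0.40). *Nptx1*, a neuronal pentraxin, averaged 51.8 ± 2.9 RPKM in scramble, 25.4 ± 3.84 in *ptgs1*-KO, 6.05 ± 0.65 in *ptgs2*-KO and 3.91 ± 0.344 in *ptges*-KO cells. For *Syt13* it was *Xlr* (0.66), and for *3830403N18Rik* they were *Scube3* (0.64) and *Col6a1* (0.65), a collagen VI chain with 10.9 ± 0.802 RPKM in *ptgs1*-KO and 1.42 ± 0.19 in scramble cells.

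Relatives of the genes were listed by family and compared with scramble, which the choice of the 10 genes did not use. The list held 78 names, with *Fam132a* and *Wibg* entered under a newer symbol as well, and 76 of the names were in the table. Of these, 14 were listed at 0 in all samples and 29 reached the mean of 1 RPKM needed for the test. With limma on log2(RPKM + 1) and Benjamini-Hochberg adjustment over all 11282 genes, 6 relatives passed an adjusted p of 0.05 in *ptgs1*-KO cells (20.7%, against 9.26% of all genes), 3 higher and 3 lower. In *ptgs2*-KO cells 7 passed (24.1%, against 11.1%), 4 higher and 3 lower, and in *ptges*-KO cells 3 passed (10.3%, against 26.3%), 2 higher and 1 lower. The median difference of relatives on the log2 scale was 0.018, 0.062 and 0.130 in the 3 lines, and that of all genes 0.007, 0.009 and -0.030. The 3 comparisons share the scramble samples, and p-values measure only the spread between these samples.

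*Xlr*, the relative of *3830403N18Rik*, had the largest of these differences. It rose from 2.79 to 3.48 RPKM in scramble to 26.79 to 37.08 in *ptgs1*-KO cells, a log2 difference of 2.98 (SE 0.20, limma adjusted p = 5.88e-07). It also rose to 14.95 to 24.72 RPKM in *ptgs2*-KO cells (log2 difference 2.42, SE 0.20, limma adjusted p = 5.93e-06), where *3830403N18Rik* averaged 1.26 ± 0.311 against 1.02 ± 0.136 RPKM in scramble. In *ptges*-KO cells it averaged 4.59 ± 1.3 RPKM and did not pass (limma adjusted p = 0.144). The remaining *Xlr* genes and *Sycp3* were below the mean of 1 RPKM, and 4 of the 11 listed were at 0 throughout.

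*Magoh*, the close copy of *Magohb*, averaged 56.3 RPKM in scramble and 57.2 in *ptges*-KO cells and did not pass in any line. Among 12 measured parts and partners of the exon junction complex, *Rbm8a*, which binds mago proteins directly, fell in *ptgs1*-KO cells (log2 difference -0.37, SE 0.08, limma adjusted p = 0.01). It rose in *ptgs2*-KO cells by 0.37 (limma adjusted p = 0.00982) and in *ptges*-KO cells by 0.49 (limma adjusted p = 0.000681). The fall in *ptgs1*-KO cells had an adjusted p of 0.0529 when only the 2 lines compared entered the limma fit. *Upf3a* rose in *ptges*-KO cells by 0.33 (limma adjusted p = 0.0314), while *Eif4a3* and *Casc3* did not pass in any line.

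For *Nefm*, the intermediate filament gene *Nes* (nestin) fell in *ptgs1*-KO cells (log2 difference -1.73, SE 0.20, limma adjusted p = 8.8e-05) and rose in *ptgs2*-KO cells by 0.91 (SE 0.20, limma adjusted p = 0.0108). Its means were 3.36 RPKM in scramble, 0.27 in *ptgs1*-KO, 6.88 in *ptgs2*-KO and 3.59 in *ptges*-KO cells, an order unlike that of *Nefm*. *Vim* did not pass in any line, and *Nefh* stayed at 0.03 RPKM or less. Of 16 synaptotagmins besides *Syt13*, 4 were tested: *Syt7* fell in *ptgs2*-KO cells (log2 difference -0.72, limma adjusted p = 0.0076), *Syt11* rose there by 0.57 (limma adjusted p = 0.0345), *Syt8* fell in *ptges*-KO cells (-0.65, limma adjusted p = 0.0274), and *Syt12* did not pass in any line. None of these rose in *ptgs1*-KO cells past the threshold, where *Syt13* was highest.

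The secreted relative of *Fam132b* that could be tested, *C1qtnf1*, rose in *ptgs1*-KO cells by 0.84 on the log2 scale (SE 0.12, limma adjusted p = 0.000464), the line in which *Fam132b* was near 0. It fell in *ptgs2*-KO cells (log2 difference -0.94, SE 0.12, limma adjusted p = 0.000229), where *Fam132b* was highest. *Fam132a* averaged 0.143 to 0.32 RPKM over the 4 lines and was not tested. *Kcnk2* (TREK-1), the other tandem-pore channel with enough signal, averaged 13 ± 0.258 RPKM in scramble cells and did not pass in any line. *Kcnk6* was among the channels too low to test, and 3 of the 13 listed were at 0 throughout.

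Among kinases related to *Nme4*, *Nme6* fell in *ptgs1*-KO cells (log2 difference -0.53, limma adjusted p = 0.0422), and *Nme1*, *Nme2*, *Nme3* and *Nme7* did not pass in any line. *Itm2c* fell in *ptgs2*-KO cells from 73.3 ± 0.976 to 54.5 ± 6.81 RPKM (log2 difference -0.43, limma adjusted p = 0.0209), and *Itm2b* did not pass in any line. *Tshz1* rose in *ptgs1*-KO cells by 0.51 (limma adjusted p = 0.019), a line in which *Tshz3* was high. In *ptges*-KO cells, where *Tshz3* was also high, *Tshz1* differed by -0.02 (limma adjusted p = 0.908), and *Tshz2* was at 0 throughout.

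Several of these calls were borderline and were lost when a sample was left out, each for more than 1 choice of sample. The *Nme6* call was lost without *ptgs1*-KO 2 or 3, *ptgs2*-KO 3 or any scramble sample, with a limma adjusted p of up to 0.127, and the *Itm2c* call without *ptgs2*-KO 1 or 3 or any scramble sample (up to 0.0862). The *Syt11* call was lost without any single *ptgs2*-KO or scramble sample (limma adjusted p up to 0.123), and the *Tshz1* call without *ptgs1*-KO 1 or scramble 1 or 2 (up to 0.0868). The *Syt8* call was lost without *ptges*-KO 1 or 3 or scramble 1 (limma adjusted p up to 0.112) and the *Upf3a* call without *ptges*-KO 1 or 2 or scramble 1 (up to 0.13). Calls of *Xlr*, *C1qtnf1*, *Nes*, *Syt7* and *Rbm8a* held without each of the 12 samples in turn.

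**Figure D2:**
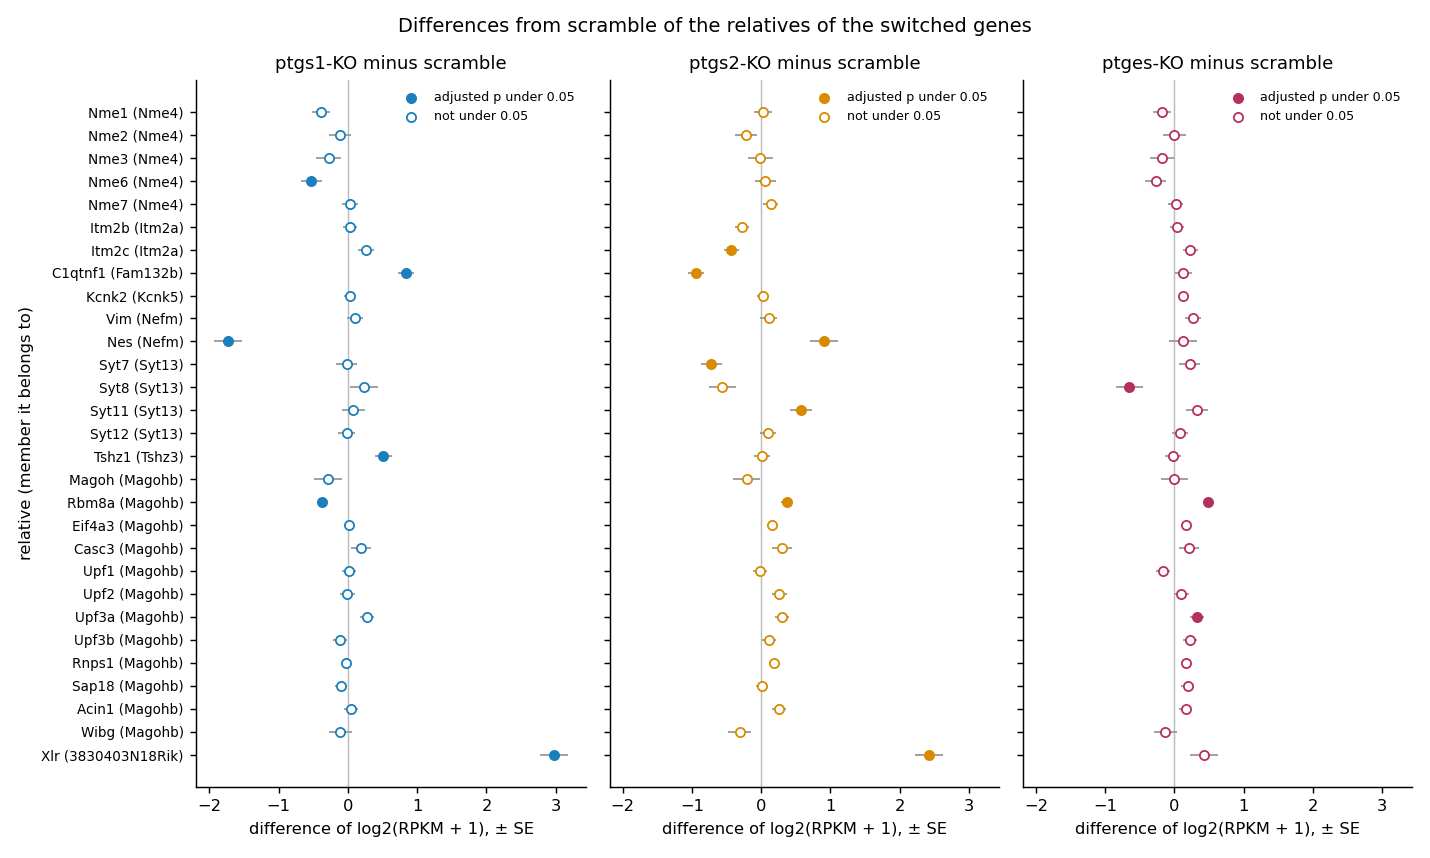
Differences of log2(RPKM + 1) from scramble (horizontal axis, with SE) for the 29 tested relatives (vertical axis, the gene each belongs to in brackets) in the 3 knockout lines; filled points passed a limma adjusted p of 0.05. *Xlr* lies far to the right in *ptgs1*-KO and *ptgs2*-KO cells, and most relatives are within 1 unit of 0.

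Chromosomal neighbours were tested in the line where each gene differed most from scramble, taking the 5 nearest tested genes on each side. No limit was set on distance, and some lay far off, such as *Apool* at 4910 kb from *Itm2a* and *Lrp6* at 3150 kb from *Magohb*. The counts therefore do not describe only the close surroundings of a gene. Of 100 neighbours, 21 passed the adjusted p of 0.05 (21%, where the shares of all genes in the same lines, weighted by neighbours, come to 18%). Of these, 14 went in the direction of the gene, the relative *Xlr* among them, and 7 against it. How all called genes divide into higher and lower is not given, so nothing is read from that split. By line, 4 of 40 passed in *ptgs1*-KO cells (10%), 0 of 10 in *ptgs2*-KO cells and 17 of 50 in *ptges*-KO cells (34%). These shares are close to those of all genes in *ptgs1*-KO cells and somewhat above in *ptges*-KO cells, where the difference itself was not tested.

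Around *Fam132b*, *Tshz3* and *5730409E04Rik* limma called 0 of the 10 neighbours each, while 1, 3 and 4 of them had an unadjusted p under 0.05. Around the other genes that count ran from 3 (*Nme4*, *3830403N18Rik*) to 8 (*Kcnk5*) of 10. The share of all genes tested with such a p is not given, so these counts are description only. *Klhl30*, 3.9 kb before *Fam132b*, differed by 0.27 on the log2 scale (limma adjusted p = 0.207) and the overlapping *Ilkap* by -0.05 (limma adjusted p = 0.805). *Decr2*, 1.41 kb from *Nme4*, differed by 0.17 (limma adjusted p = 0.254), and *Styk1*, 5.89 kb from *Magohb*, by 0.04 (limma adjusted p = 0.822). The genes beside them differed in the same comparisons by -4.28 (*Fam132b*), 3.27 (*Nme4*) and 3.56 (*Magohb*). With a pseudocount of 0.1 in place of 1 these became -7.31, 6.45 and 5.03.

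Some of the genes next in line did pass. *Xlr*, the nearest tested gene before *3830403N18Rik* at a distance of 2040 kb, rose with it as given above. *Pgk1*, a glycolytic kinase 1190 kb from *Itm2a*, rose in *ptges*-KO cells by 1.11 on the log2 scale (SE 0.08, limma adjusted p = 5.42e-07). *Slc25a37*, the mitochondrial iron importer 1120 kb from *Nefm*, fell in *ptges*-KO cells (log2 difference -0.93, limma adjusted p = 2.77e-05). Both nearest tested genes of *Kcnk5* fell in *ptges*-KO cells, *1810063B07Rik* at 56.9 kb (log2 difference -0.60, SE 0.18, limma adjusted p = 0.0249) and *Nudt13* at 113 kb (-0.59, SE 0.15, limma adjusted p = 0.0117). Farther from *Kcnk5*, *Nid2* at 328 kb (0.50, limma adjusted p = 0.0107) and *Ube2e1* at 1810 kb (0.58, limma adjusted p = 0.000298) rose in the same cells, and both calls held without each sample in turn. The *1810063B07Rik* call was lost without *ptges*-KO 1 or any scramble sample (limma adjusted p up to 0.0919), and the *Nudt13* call without scramble 1 (0.0542).

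*Syt13* had neighbours that moved both ways in *ptgs1*-KO cells. *Chst1*, a sulfotransferase 300 kb away, fell (log2 difference -0.58, limma adjusted p = 0.00042), *Mapk8ip1* at 514 kb rose by 0.95 (limma adjusted p = 0.000242), and *Prdm11*, only 9.1 kb away, differed by 0.28 (limma adjusted p = 0.149).

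**Figure D3:**
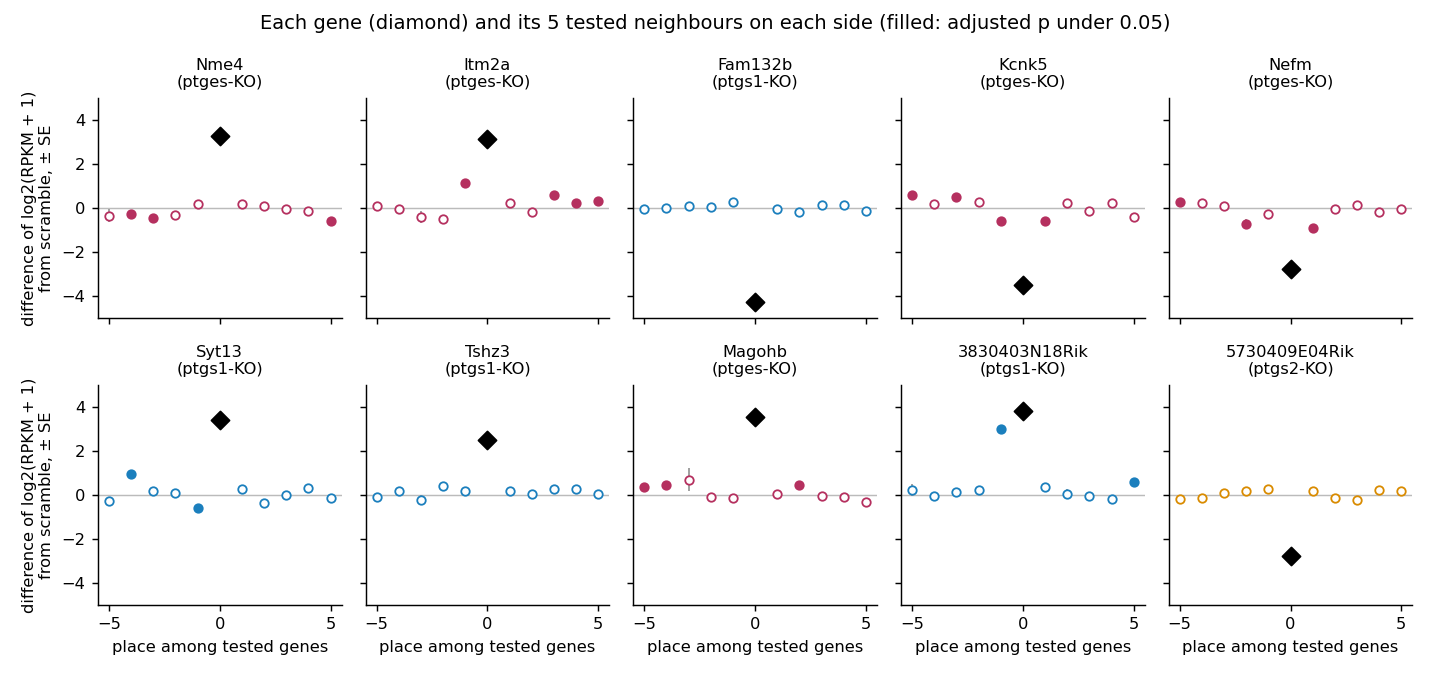
Differences of log2(RPKM + 1) from scramble (vertical axis) of each of the 10 genes (diamond) and of its 5 tested neighbours on each side by their order along the chromosome (horizontal axis), in the line named above each panel; bars are SE and filled points passed a limma adjusted p of 0.05. The neighbours of *Fam132b*, *Tshz3* and *5730409E04Rik* all lie near 0, and *Xlr* stands apart beside *3830403N18Rik*.

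RefSeq promoters were found for 8 of the 10 genes, and for *Nefm* and *Syt13* none was used. Their content of CG was expressed as the count over that expected from the C and G present. The ratio ran from 0.25 for *Itm2a* (7 CG) and 0.46 for *3830403N18Rik* (8 CG) through 0.75 for *Nme4* (20 CG), 0.76 for *5730409E04Rik* (26 CG), 0.80 for *Tshz3* (33 CG), 0.88 for *Kcnk5* (26 CG) and 0.90 for *Fam132b* (29 CG) to 1.43 for *Magohb* (25 CG). The median over the 8 was 0.78, that over all 32851 RefSeq promoters was 0.38 and that over the 10987 promoters of the genes tested was also 0.78. Of the switched promoters, *Itm2a* was below both medians, and *3830403N18Rik*, *Nme4* and *5730409E04Rik* were between them. *Tshz3*, *Kcnk5*, *Fam132b* and *Magohb* were above both.

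Of the pairs that moved together, *Nme4* and *Tshz3* had ratios close to each other, at 0.75 and 0.80. *Itm2a* and *Magohb* stood at the ends of the range: 7.31% of promoters of genes tested had a lower ratio than *Itm2a*, and 1 had a higher ratio than *Magohb*. The *Magohb* window shown above also held TGACGTCA, the cAMP response element, which reads the same on both strands and occurs in 1.79% of all promoters of the table and in 3.29% of those of genes tested. No other of the 8 windows held it, and none held TATAAA (13.6% of all promoters) or TGANTCA, the AP-1 site (7.81%), with both strands searched. The shares of TATAAA and TGANTCA in promoters of genes tested are not given, and nothing is read from their absence in so few windows. A match of letters is a description of the window and was not measured as a binding site.

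**Figure D4:**
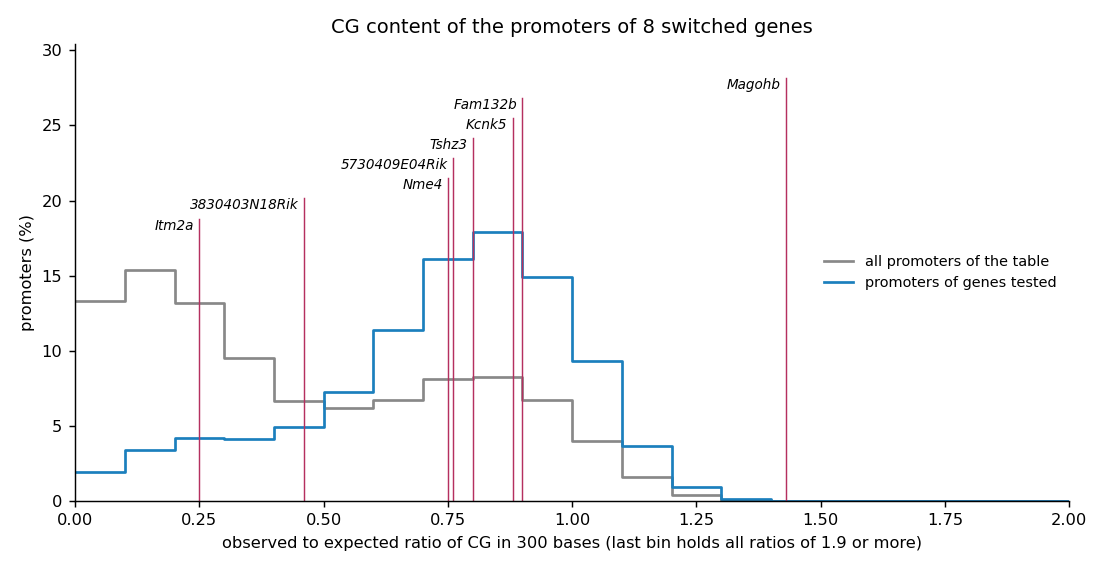
Share of promoters (vertical axis, %) by the observed to expected ratio of CG over 300 bases (horizontal axis), for all promoters of the RefSeq table (grey) and for those of the genes tested (blue); red lines mark the promoters of 8 switched genes. *Itm2a* and *3830403N18Rik* lie at 0.25 and 0.46, 5 genes between 0.75 and 0.90, and *Magohb* at 1.43.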

How the data were processed

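RNA-seq libraries from 3 samples of the scramble line and of each of the 3 knockout lines were sequenced as 101-base paired-end reads. The authors deposited RPKM values per gene with 2 decimals, and the submitters' processing notes name the mm10 build, while aligner, counter and annotation are not given in the sources used here. The study's methods call the values normalized counts, whereas its legend and the table give RPKM.

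Genes averaging at least 1 RPKM (11282) were tested on log2(RPKM + 1), which understates changes of low genes, with limma 3.58.1 (lmFit, eBayes with trend, R 4.3.3), all 12 samples in one fit, each knockout against scramble, Benjamini-Hochberg adjusted. The test was tested on simulated data. Depth was estimated from steps of low values, using GENCODE M21 lengths, and is approximate. The genes, their relatives, markers and limits were chosen with earlier results of these data known. Names were drawn from the 10 genes, the 3 targeted genes, the 3 nearest profiles, both flanking tested genes, the closest relatives and up to 3 relatives a family past the threshold. Every flanking gene past the threshold is named, while several that did not pass and several nearest profiles are left out. Other relatives and neighbours were named after their values were seen. Alternatives covered pseudocount, filter, scaling, trend, samples fitted, replicate block, limits, flank size and each sample left out. Figures used matplotlib 3.10.9 and Python 3.11.15.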

Additional observations from a re-analysis of the deposited data

Results flagged for a closer look

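For 5 of the 10 genes, all 3 samples of one knockout line lay above all scramble samples and all 3 of another knockout line below them, on the log2(RPKM + 1) scale. This was so for 8 pairs of lines, and the difference between the effects was not tested, since these values chose the genes. The share of all genes tested that does the same is not given, so nothing is read from these counts. The effect on *Fam132b* was 4.68 log2 units higher in *ptgs2*-KO than in *ptgs1*-KO cells. For *Kcnk5* the effect in *ptgs1*-KO cells exceeded that in *ptgs2*-KO cells by 0.62 and that in *ptges*-KO cells by 3.86. For *Tshz3* the effect in *ptgs2*-KO cells was exceeded by 2.81 in *ptgs1*-KO and by 2.38 in *ptges*-KO cells. *3830403N18Rik* was higher by 4.52 in *ptgs1*-KO than in *ptges*-KO cells. For *5730409E04Rik* the *ptgs1*-KO effect exceeded the *ptgs2*-KO effect by 3.21, and the *ptges*-KO effect exceeded it by 3.52. With 3 samples a line, no search for a single outlying sample was made.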

How the results depend on the processing

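The largest difference from scramble of each of the 10 genes kept its direction in all 90 recomputed values; 77 moved by less than the spread between replicates, 10 moved with a pseudocount of 0.1, under which every difference was larger (*Nme4* 6.45 against 3.27, *3830403N18Rik* 4.61 against 3.81), and 3 with quantile normalization. The 7 relatives changed in *ptgs2*-KO cells became 3 with a filter at a mean of 10 RPKM (10.9% of all genes), under which fewer genes are tested. The 3 relatives changed in *ptges*-KO cells became 6 with median ratio scaling (33.4% of all genes) and 6 with quantile normalization (30.8%). They ranged from 1 (without scramble 1, 19.9%) to 4 (without *ptgs1*-KO 3, 29.1%) when each sample was left out. The cause was not tested. The 21 changed neighbours became 8 of 40 with 2 neighbours on each side. The 17 genes switched over the whole table became 38 with off at 0.5 RPKM, 35 with on at 2 RPKM, 7 with on at 10 RPKM and 32 when the mean of a line, not each sample, had to pass; these limits set the count by construction. Without the filter on low values the limma calls of *Nme6* (adjusted p = 0.0811), *Syt8* (0.0544), *Syt11* (0.0613) and *1810063B07Rik* (0.0583) were lost, and with quantile normalization those of *Syt8* (0.0912) and *1810063B07Rik* (0.0588). Of 18 same-numbered pairs of samples, 5 correlated above 0.1 (range -0.3407 to 0.5663). Pairs with different numbers were not set beside them, so whether replicate numbers pair the samples is not settled. With the replicate block, 7, 7 and 3 relatives and 26 neighbours changed. Low levels rest on a few reads, the depth is an estimate, and counting intervals were not given for RPKM.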
